A study of Mus musculus with 6 samples.

Results

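The 30 genes described here encode neuropeptides and the proteins that pack and process them in secretory granules. They were taken by gene symbol from a written list, and all 30 were found among the 43432 genes measured. By role, 18 encode peptide precursors (Sst, Npy, Vip, Cck, Tac1, Tac2, Crh, Penk, Pdyn, Pnoc, Cartpt, Adcyap1, Nts, Gal, Trh, Cort, Nmb and Grp), 1 encodes a peptide-binding protein (Crhbp), 7 encode granins or granin-like proteins (Vgf, Scg2, Scg3, Scg5, Chga, Chgb and Pcsk1n) and 4 encode processing enzymes (Pcsk1, Pcsk2, Cpe and Pam). Their RNA was followed by RNA-seq in primary mouse cortical neurons before and after membrane depolarization, to ask which of them responded and when.

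The neurons came from the cortex of WT C57BL/6 embryos at E16.5, with male and female embryos pooled. All cultures, including the controls, were grown for 7 days and silenced overnight with 1 μM tetrodotoxin, which blocks sodium channels, and 100 μM DL-AP5, which blocks NMDA receptors. One group was then harvested without depolarization (0 h), and the others were kept in 55 mM KCl, which depolarizes the membrane and opens voltage-gated calcium channels, for 2 h or 6 h. Each group had 2 libraries. The study describes them as biological replicates. Neither the labels nor the methods say whether they came from separate litters or cultures, so the p-values measure the spread between these libraries, which may be partly technical. The 2 h and 6 h comparisons with 0 h share the same 0 h libraries and are not independent of each other.

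Neuropeptides are made as long precursors in the endoplasmic reticulum, sorted with granins into dense-core granules, cut by prohormone convertases at basic residues, trimmed by carboxypeptidase E and in many cases amidated by peptidylglycine alpha-amidating monooxygenase. The granules are released during sustained firing, after calcium entry. In the cortex most classical neuropeptides are made by GABAergic interneurons, while several granins are made by most neurons.

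Total expected counts lay between 25959298 and 28573067 per library, and 18767 to 19212 genes had a count. The 2 h libraries differed more from each other than those of the other groups, with an SD of the log2 difference between replicates of 0.43 against 0.25 at 0 h and 0.21 at 6 h. The known activity genes Fos, Npas4 and Bdnf were called higher at both times in KCl, as were all 6 genes of that list. All 22 interneuron markers and all 16 excitatory neuron markers had a TPM above 0 in every library. The 8 hypothalamic markers summed to between 1.26 and 2.44 TPM, with 3 to 5 of them at 0 in each library. In bulk RNA, a change in the share of cells of a type and a change in RNA per cell cannot be told apart.

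The term called means here that DESeq2 gave an adjusted p no higher than 0.05 together with a change of more than 1 on the log2 scale, in either direction. After 2 h of KCl, 7 of the 30 genes were called higher than at 0 h (Tac1, Crh, Adcyap1, Crhbp, Vgf, Scg2 and Pcsk1), against 3.62% of all genes tested. After 6 h, 12 were called higher than at 0 h, against 9.1% of all genes: those 7 and Sst, Pnoc, Cartpt, Cort and Pam. Between 2 h and 6 h, 5 were called higher at 6 h (Pnoc, Cartpt, Cort, Crhbp and Pam), against 10.1% of all genes. All 5 belong to the 12 called at 6 h against 0 h, a combination that is the late response as the study defines it and that 3.73% of all genes met. Both comparisons in that definition use the 6 h libraries.

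None of the 30 genes was called lower in DESeq2 in any of the comparisons, while 5.94%, 10.2% and 8.02% of all genes were called lower at 2 h against 0 h, at 6 h against 0 h and at 6 h against 2 h. At an unadjusted p under 0.05, DESeq2 gave 0, 4 and 4 of them lower, and edgeR, which also called 0 lower in each comparison, gave 0, 4 and 5. The median log2 fold change of the 30 genes was 0.31 at 2 h against 0 h, 0.30 at 6 h against 0 h and 0.16 at 6 h against 2 h. Over all genes averaging 10 or more normalized counts the medians were 0.01, -0.00 and 0.00.

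**Figure D1:**
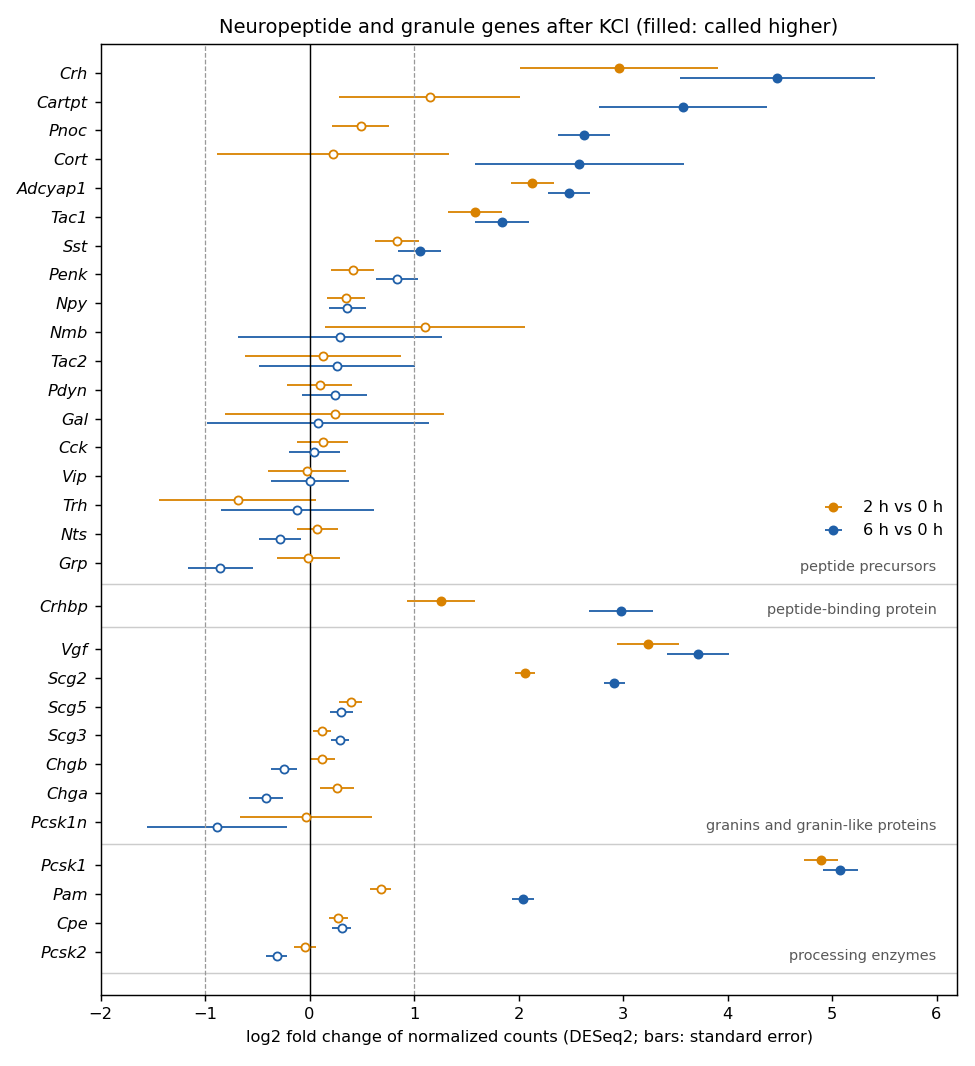
Log2 fold change (horizontal axis, DESeq2, bars are standard errors) of each of the 30 genes at 2 h and at 6 h of KCl against 0 h, grouped by role; filled points were called higher and dashed lines mark a log2 fold change of 1 in either direction. The 12 filled genes at 6 h include 7 precursors, Crhbp, the granins Vgf and Scg2 and the enzymes Pcsk1 and Pam, and no gene was called lower.

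Plotting the log2 fold changes by role showed that the size of the response differed widely among the precursors, among the granins and among the processing enzymes. The largest with all 6 libraries was that of Pcsk1 at 5.08 at 6 h, and the members with wide error bars (Crh, Cartpt, Cort, Nmb, Gal, Trh, Tac2 and Pcsk1n) were the 8 with a mean normalized count under 50.

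Bases upstream of the RefSeq start sites of genes of the group were searched for the cAMP response element (CRE). This DNA motif is bound by CREB family factors, which act downstream of calcium entry. Whether the motif has a part in the changes was not tested. The 250 bases before the start site were read from RefSeq (GRCm38.p6) for 24 of the 30 genes, and the windows for Crh, Penk, Pnoc, Grp, Vgf and Cpe were not analysed here. The full CRE, TGACGTCA, which reads the same on both strands, was found in 5 of the 24 (Sst, Cartpt, Scg2, Chgb and Pcsk1), against 1.77% of 27025 genes with a window. Of the 9 called genes with a window 4 held it, and of the 15 uncalled genes 1 did. The stretches of 30 bases around the 5 full sites are shown 5′ to 3′ on the strand of the gene with the CRE in capitals, to set the called genes beside the uncalled Chgb.
Sst: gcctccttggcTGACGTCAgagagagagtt
Cartpt: ccggcgggcatTGACGTCAaacggcagcgg
Scg2: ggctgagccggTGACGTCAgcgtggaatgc
Chgb: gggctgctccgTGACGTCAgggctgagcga
Pcsk1: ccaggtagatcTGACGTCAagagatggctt
The stretches lie at chr16:23890874-23890903 (minus strand) for Sst, chr13:99900777-99900806 (minus strand) for Cartpt, chr1:79440076-79440105 (minus strand) for Scg2, chr2:132781559-132781588 (plus strand) for Chgb and chr13:75089768-75089797 (plus strand) for Pcsk1. Counted in bases from the RefSeq start site, the CRE spans positions -48 to -41 of Sst, -112 to -105 of Cartpt, -68 to -61 of Scg2, -72 to -65 of Chgb and -78 to -71 of Pcsk1. In GENCODE M21 the sites of Sst, Cartpt, Scg2 and Chgb fall inside an exon of a transcript that starts further upstream, and that of Pcsk1 lies outside any exon of the gene.

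The half-site of this motif, TGACG or CGTCA on the strand of the gene, was found in 17 of the 24 genes, those with the full CRE included, against 19.8% of all genes with a window. Among the 9 called genes 8 held it, and among the 15 uncalled genes 9 did, so the half-site was common in uncalled genes of the group as well. The stretches of the 4 called genes with a half-site alone are shown with the half-site in capitals.
Tac1: gctctacaggctCGTCAcgcctgagataaa
Adcyap1: ggactaggatgcTGACGtcttttactgata
Cort: ctccggcttgtgCGTCAccgcgtgagtgtg
Crhbp: gagctggaccctCGTCAttgccacgcattt
They lie at chr6:7555006-7555035 (plus strand) for Tac1, chr17:93198914-93198943 (plus strand) for Adcyap1, chr4:149126764-149126793 (minus strand) for Cort and chr13:95444878-95444907 (minus strand) for Crhbp. The AP-1 motif TGANTCA, bound by Fos and Jun proteins, which reads the same on both strands and overlaps neither CRE form in these windows, was found in 2 of the 24 genes (Nts and Pcsk1n, both uncalled), against 7.82% of all genes. A match of letters is a description of the sequence, and binding was not measured here.

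**Figure D2:**
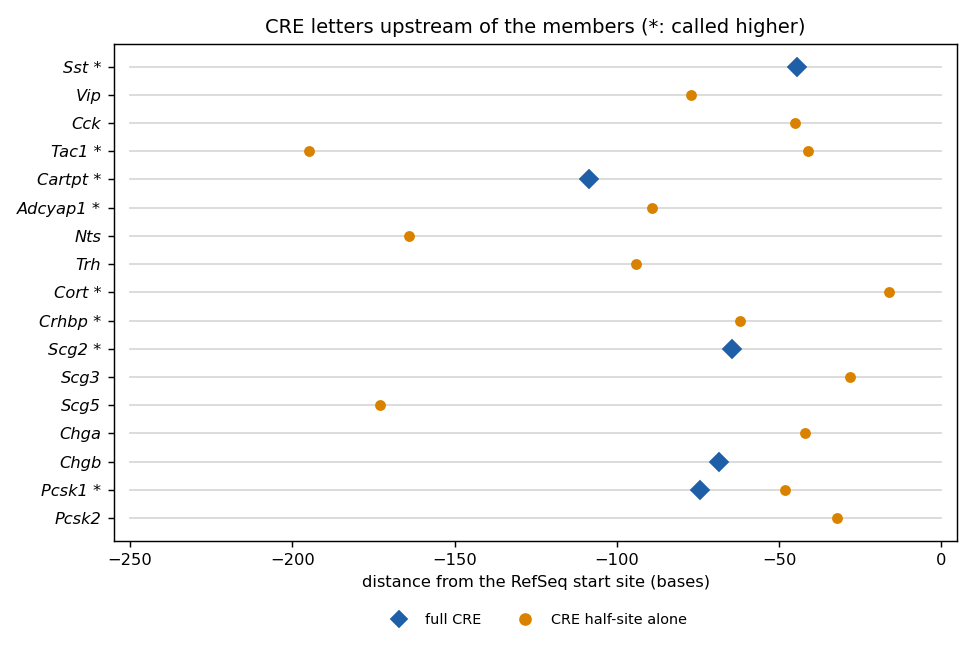
Position of each CRE match relative to the RefSeq start site (horizontal axis, in bases) for the 17 genes with a match in the 250 bases upstream; diamonds are the full CRE, circles are half-sites outside a full CRE, and an asterisk marks a gene called higher in any comparison. A match that lies in both windows of a gene with 2 start sites is drawn once, for the upstream start. The 5 full sites lie between positions -112 and -41, 4 of them in called genes.

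Among the 18 peptide precursors, Tac1, Crh and Adcyap1 were called higher by 2 h, and Sst, Pnoc, Cartpt and Cort joined them by 6 h. Somatostatin, an inhibitory peptide that marks a large class of cortical interneurons (Sst, chr16:23889573-23890958), was at 116 and 129 TPM at 0 h, 160 and 236 TPM at 2 h, and 222 and 244 TPM at 6 h. Every depolarized library was above both 0 h libraries, and the 2 h libraries were far apart, with one of them within the range of the 6 h libraries. The log2 fold change of Sst was 1.05 (SE 0.21, adjusted p = 2.84e-06) at 6 h against 0 h, which is just past the fold threshold, and 0.84 (SE 0.21, adjusted p = 0.0005) at 2 h, which is below it. Without the second 6 h library it was 0.99 and Sst was not called, without the first 2 h library the 2 h value was 1.08 and Sst was called, and with library totals as size factors the 6 h value was 0.81.

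Adcyap1, the precursor of the peptide PACAP (chr17:93199017-93206537), was at 2.87 TPM in both 0 h libraries, 10.9 and 11.4 TPM at 2 h, and 14.5 and 13.9 TPM at 6 h. The 3 groups did not overlap, and most of the rise was present at 2 h. Its log2 fold change against 0 h was 2.13 (SE 0.21, adjusted p = 3.29e-23) at 2 h and 2.48 (SE 0.20, adjusted p = 3.54e-32) at 6 h. The step from 2 h to 6 h was 0.35 (SE 0.18, adjusted p = 0.102) and was not called.

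Tac1, which encodes substance P and neurokinin A (chr6:7554879-7565834), was at 7.05 and 12.8 TPM at 0 h, 28.6 and 27.2 TPM at 2 h, and 34.8 and 33.3 TPM at 6 h. The lowest depolarized library was above the highest 0 h library by more than the spread within any group. Its log2 fold change was 1.58 (SE 0.26, adjusted p = 2.39e-08) at 2 h and 1.84 (SE 0.26, adjusted p = 1.44e-11) at 6 h. The related precursor Tac2, which encodes neurokinin B, was at 1.66 to 3.73 TPM over the 6 libraries with overlapping groups and was not called.

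Crh, which encodes corticotropin-releasing hormone (chr3:19693401-19695396), had 0 and 5 expected counts at 0 h, 22 and 11 after 2 h and 48 and 41 after 6 h. The groups did not overlap, but one 0 h library held no count at all, so the size of the fold change is poorly determined. The fitted log2 fold change was 4.48 (SE 0.93, adjusted p = 7.77e-06) at 6 h and 2.96 (SE 0.95, adjusted p = 0.00955) at 2 h. The 2 h call was lost without the first 0 h library (log2 fold change 1.99, adjusted p = 0.23), without the first 2 h library (2.4, 0.106), and without the first or the second 6 h library (2.97 in both, 0.0668 and 0.0587). Without the second 0 h library, which leaves a 0 h group with no count of Crh, the fitted values were 6.68 at 2 h and 8.19 at 6 h, and their size then depends on the fit and is no measure of the fold.

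Pnoc, which encodes nociceptin (chr14:65400673-65425472), was at 2.06 and 2.4 TPM at 0 h, 2.85 and 2.68 TPM at 2 h, and 11.2 and 13.1 TPM at 6 h. It stood apart from Adcyap1 and Tac1 in that the 2 h level was close to that at 0 h and the rise fell between 2 h and 6 h. The log2 fold change was 0.49 (SE 0.27, adjusted p = 0.185) at 2 h against 0 h, 2.62 (SE 0.25, adjusted p = 2.71e-24) at 6 h against 0 h and 2.14 (SE 0.24, adjusted p = 5.95e-17) at 6 h against 2 h.

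Cartpt, which encodes the CART peptides (chr13:99898489-99901091), and Cort, which encodes cortistatin, a relative of somatostatin (chr4:149125034-149126763), were also called between 2 h and 6 h, at low counts. Cartpt had 3 and 6 expected counts at 0 h, 12 and 5 after 2 h and 33 and 53 after 6 h. Its log2 fold change was 3.57 (SE 0.81, adjusted p = 4.26e-05) at 6 h against 0 h and 2.42 (SE 0.74, adjusted p = 0.0031) at 6 h against 2 h. The second call was lost without the second 2 h library (1.96, adjusted p = 0.0765) and without the second 6 h library (2.04, adjusted p = 0.207).

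Cort had 5 and 2 expected counts at 0 h, 3 and 4 at 2 h, and 17 in each 6 h library. Both 6 h libraries were above the other 4, at a level where a few reads set the fold change. The log2 fold change was 2.58 (SE 1.00, adjusted p = 0.0238) at 6 h against 0 h and 2.36 (SE 1.00, adjusted p = 0.0414) at 6 h against 2 h. Neither call held when any single library was left out: the adjusted p then lay between 0.0551 and 0.259 against 0 h and between 0.0851 and 0.215 against 2 h, and without either 6 h library DESeq2 gave none. With the replicate number as a block they were 0.0566 and 0.0904, and with library totals as size factors 0.053 and 0.0591.

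Npy, which encodes neuropeptide Y, had the highest TPM of the 18 precursors in every library, at 190 and 241 TPM at 0 h, 222 and 275 TPM at 2 h, and 241 and 268 TPM at 6 h. The 2 h and 6 h groups of Npy overlapped each other, and in TPM the 2 h group also overlapped that at 0 h. In normalized counts neither of them overlapped the 0 h group. The log2 fold changes of 0.35 (SE 0.18, adjusted p = 0.146) at 2 h and 0.36 (SE 0.18, adjusted p = 0.085) at 6 h against 0 h were not called. Npy made up 43.6% and 48.0% of the summed precursor TPM at 0 h, 41.7% and 40.7% after 2 h and 38.3% and 38.5% after 6 h. Summed over the 18 precursors, the 0 h libraries held 435 and 503 TPM, the 2 h libraries 532 and 676 and the 6 h libraries 629 and 696, with Npy and Sst as the main parts.

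Penk, which encodes the enkephalins, was at 16.2 and 16.6 TPM at 0 h, 16.7 and 21.9 TPM at 2 h, and 25.5 and 26.3 TPM at 6 h. The 6 h libraries were above the others, and the log2 fold change of 0.83 (SE 0.20, adjusted p = 0.000145) against 0 h was below the fold threshold. The other opioid precursor, Pdyn, which encodes the dynorphins, was at 2.28 to 3.08 TPM with a log2 fold change of 0.24 (SE 0.31) at 6 h and was not called.

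Grp, which encodes gastrin-releasing peptide, had the lowest fold change of the precursors at 6 h against 0 h. It was at 26.8 and 22.7 TPM at 0 h, 17.2 and 26.4 TPM at 2 h, and 10.5 and 13.9 TPM at 6 h. Both 6 h libraries were below the other 4, and the log2 fold changes of -0.86 (SE 0.31, adjusted p = 0.0155) against 0 h and -0.84 (SE 0.31, adjusted p = 0.0177) against 2 h did not reach the fold threshold. With library totals as size factors the first was -1.10 and Grp was called lower. Without the second 6 h library the values were -1.07 and -1.06, and without the first 2 h library the second was -1.11, and these were called lower.

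The remaining precursors did not pass the threshold in any comparison, and their groups mostly overlapped. Cck, which encodes cholecystokinin, was at 30.9 to 43.0 TPM, with a log2 fold change of 0.05 (SE 0.24) at 6 h against 0 h. Vip, which encodes vasoactive intestinal peptide of another interneuron class, was at 2.57 to 3.42 TPM with a log2 fold change of 0.00 (SE 0.37), and Nts, which encodes neurotensin, was at 15.7 to 24.1 TPM with a log2 fold change of -0.28 (SE 0.20). Gal, Trh and Nmb, which encode galanin, thyrotropin-releasing hormone and neuromedin B, had between 4 and 29 expected counts per library, and the standard errors of their log2 fold changes against 0 h were 0.73 to 1.06. Nmb overlaps Sec11a on the same strand, so its counts are uncertain, although they were whole in every library.

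**Figure D3:**
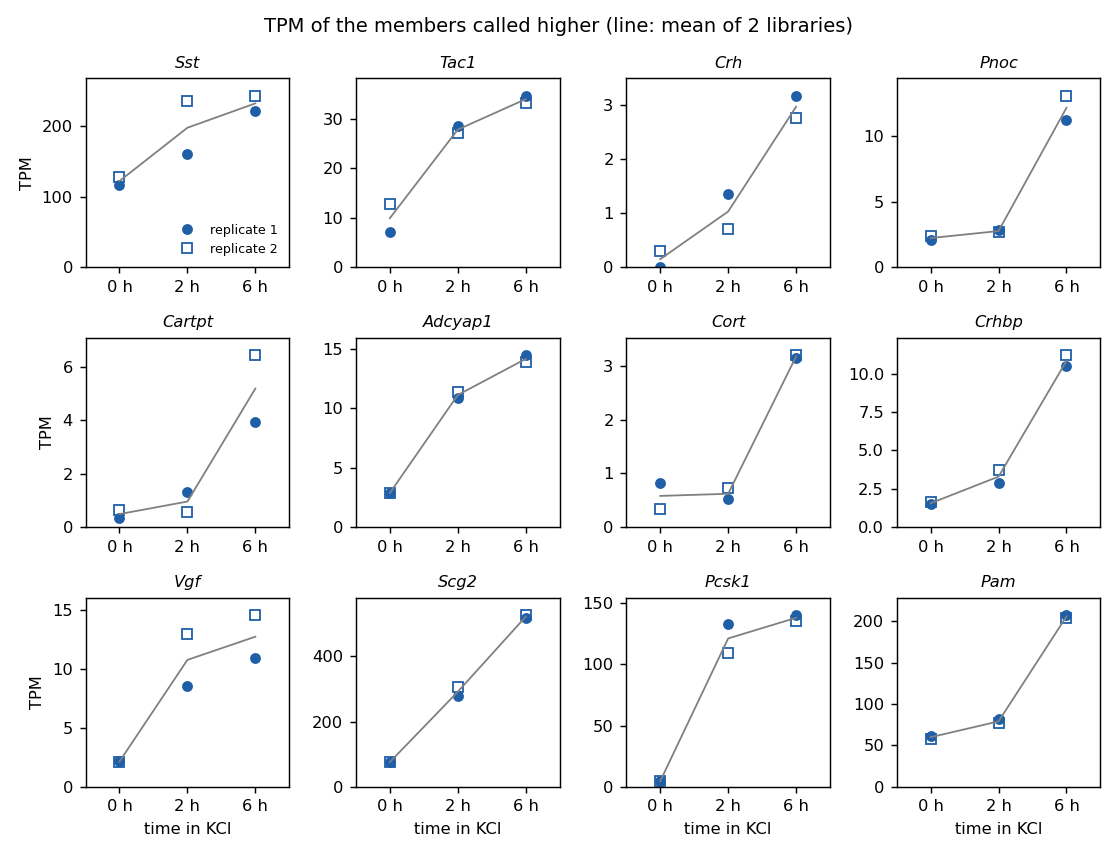
TPM (vertical axis, linear, from 0, scaled per gene) of the 12 genes called higher in any comparison, by time in KCl; filled circles are the first and open squares the second replicate, and lines join the means of the 2 libraries. Pcsk1, Adcyap1, Tac1 and Vgf had most of their rise by 2 h, Scg2 rose in both intervals, and Pnoc, Cort, Crhbp, Cartpt and Pam rose mainly between 2 h and 6 h.

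The time courses in TPM of the 12 called genes fell into different shapes, which the role of the protein did not sort. Crhbp encodes the secreted protein that binds corticotropin-releasing hormone and limits its access to receptors (chr13:95431371-95444924). It was at 1.49 and 1.61 TPM at 0 h, 2.84 and 3.74 TPM at 2 h, and 10.5 and 11.2 TPM at 6 h, so the groups were in order of time without overlap. Against 0 h the log2 fold change was 1.26 (SE 0.32, adjusted p = 0.000765) at 2 h and 2.98 (SE 0.31, adjusted p = 1.08e-20) at 6 h, with a step of 1.72 (SE 0.28, adjusted p = 9.6e-09) from 2 h to 6 h. The 2 h call was lost without the first 0 h library (1.22, adjusted p = 0.0615) and without the second 2 h library (1.04, adjusted p = 0.0514).

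Scg2 and Vgf were the 2 of 7 granins and granin-like proteins called higher, in each case at both times. Scg2 encodes secretogranin II, a granule matrix protein and the source of secretoneurin (chr1:79434669-79440120). Its levels were 76.0 and 75.4 TPM at 0 h, 278 and 305 TPM at 2 h, and 517 and 526 TPM at 6 h. The groups were far apart compared with the spread within each, and the rise continued after 2 h.

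In DESeq2 the log2 fold change of Scg2 was 2.06 (SE 0.10, adjusted p = 2.74e-96) at 2 h and 2.92 (SE 0.10, adjusted p = 6.67e-194) at 6 h. The step from 2 h to 6 h was 0.85 (SE 0.10, adjusted p = 1.41e-17), past the p threshold and below the fold threshold. At 0 h Scg5 had the highest TPM of the 7, with 30.5% and 30.6% of their sum, and Scg2 ranked at position 5. At 2 h Scg2 had the highest TPM, with 32.2% and 31.5% of the sum, and at 6 h it held 47.1% and 47.8%. Scg2 carries one of the full CRE sites printed above, as does the uncalled Chgb.

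Vgf, a precursor of several secreted peptides that is induced by nerve growth factor (chr5:137026392-137033351), had 30.2 and 30.3 normalized counts at 0 h, 252 and 320.5 after 2 h and 342 and 454 after 6 h. All 4 depolarized libraries were above the 0 h libraries by several fold, and the spread was larger after KCl than before. This amounted to a log2 change of 3.24 (SE 0.30, adjusted p = 1.72e-25) at 2 h and 3.72 (SE 0.30, adjusted p = 3.38e-34) at 6 h. The corresponding TPM values were 2.22 and 2.06, 8.56 and 13.0, and 10.9 and 14.6, a smaller change than in the counts.

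TPM is corrected for the effective length of a gene, which RSEM derives from the lengths of its transcripts, weighted by their abundance and reduced for the length of the sequenced fragments. That of Vgf was listed at 959 and 1045 bases at 0 h, 1815 and 1556 after 2 h and 1935 and 1956 after 6 h. The annotated transcripts of Vgf are 581 to 2834 bases long in full, without that reduction. The log2 ratio of its effective length was 0.75 (adjusted p = 0.177) at 2 h and 0.96 (adjusted p = 0.0607) at 6 h in limma's moderated test, so the groups did not overlap but the call was not made, and at 0 h the estimate rests on 34 and 36 counts. Of the 20 genes of the group with enough counts for this test, 0 were called in each comparison, against 0.0356%, 0.525% and 0.116% of all genes. At an unadjusted p under 0.05 limma gave 3, 3 and 0 of them.

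The other 5 granins were not called in any comparison. Scg5, which encodes the chaperone of the prohormone convertase made by Pcsk2, was at 202 and 203 TPM at 0 h and 215 to 247 TPM afterwards, and its log2 fold change was 0.40 (SE 0.11, adjusted p = 0.00233) at 2 h and 0.30 (SE 0.11, adjusted p = 0.0167) at 6 h. Scg3, which encodes secretogranin III, a granule protein that binds other granins, was at 184 to 212 TPM, and its log2 fold change was 0.29 (SE 0.09, adjusted p = 0.00318) at 6 h. Both were past the p threshold and far below the fold threshold.

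The chromogranins were not called, and their log2 fold changes at 6 h were below 0. Chga, which encodes chromogranin A, was at 86.6 and 86.0 TPM at 0 h, 78.6 and 105 TPM at 2 h, and 56.2 and 58.4 TPM at 6 h. Both 6 h libraries were below the other 4, and the log2 fold change at 6 h was -0.41 (SE 0.16, adjusted p = 0.0272) against 0 h and -0.68 (SE 0.16, adjusted p = 0.000134) against 2 h. Chgb, which encodes chromogranin B, was at 100.1 TPM in both 0 h libraries, 88.5 and 104 TPM at 2 h, and 76.2 and 73.2 TPM at 6 h.

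The log2 fold change of Chgb at 6 h was -0.24 (SE 0.12, adjusted p = 0.0964) against 0 h and -0.37 (SE 0.12, adjusted p = 0.00828) against 2 h. Pcsk1n, which encodes proSAAS, an inhibitor of the convertase made by Pcsk1, was under 1 TPM in every library, with 9 to 27 expected counts, and was not called. Summed over the 7 granin genes, the 0 h libraries held 660 and 665 TPM, the 2 h libraries 864 and 966 and the 6 h libraries 1098 and 1099.9, while Scg2 alone went from 76.0 and 75.4 to 517 and 526 TPM.

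**Figure D4:**
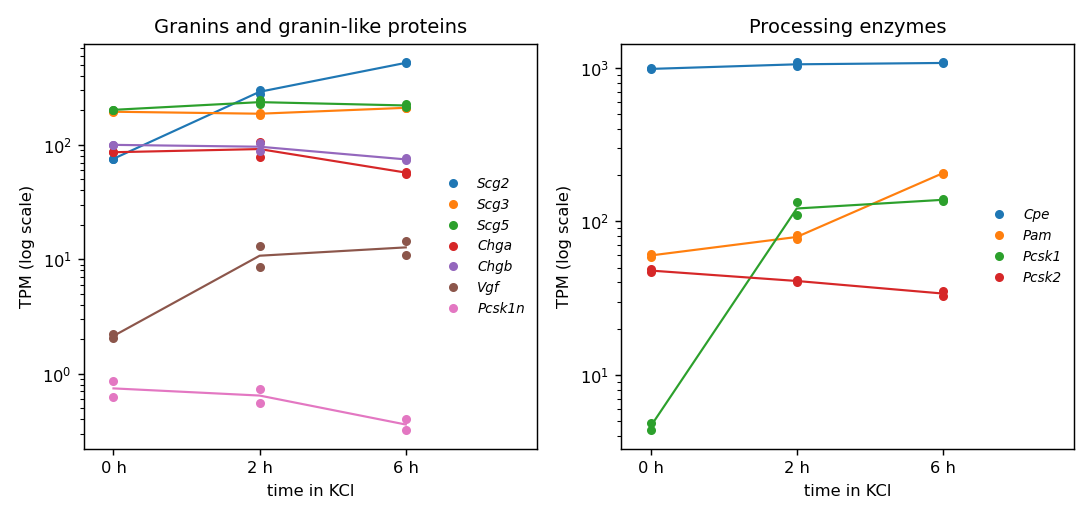
TPM (vertical axes, log scale) of the 7 granin and granin-like genes (left) and the 4 processing enzymes (right) by time in KCl; points are libraries and lines join the means of 2 libraries per group. Scg2 passed the other granins by 2 h, Pcsk1 moved from below to above Pcsk2 by 2 h, and Cpe was the most abundant enzyme throughout.

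Set side by side on a log scale, the levels of the granins and the enzymes show that the order of genes changed within both classes. Of the 4 processing enzymes, Pcsk1 was called higher at both times and Pam at 6 h. Pcsk1 encodes a prohormone convertase that makes the first cuts in many precursors (chr13:75089826-75134861). It was at 4.35 and 4.89 TPM at 0 h, 133 and 109 TPM at 2 h, and 140 and 136 TPM at 6 h.

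The depolarized libraries of Pcsk1 were all far above the 0 h libraries and close to one another. Its log2 fold change against 0 h was 4.89 (SE 0.16, adjusted p = 2.54e-190) at 2 h, or 29.7-fold, and 5.08 (SE 0.16, adjusted p = 1.07e-204) at 6 h, or 33.8-fold. With all 6 libraries these were the highest of the 30 genes against 0 h at each time. Without the second 0 h library the fitted value of Crh was higher than that of Pcsk1 at both times. From 2 h to 6 h the log2 fold change of Pcsk1 was 0.19 (SE 0.15, adjusted p = 0.313), and it was not called.

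Pcsk2, which encodes the other main neuronal convertase, was at 46.6 and 48.9 TPM at 0 h, 40.2 and 41.6 TPM at 2 h, and 32.6 and 35.1 TPM at 6 h. The groups did not overlap, and the log2 fold change of -0.32 (SE 0.10, adjusted p = 0.00587) at 6 h was below the fold threshold. Pcsk2 overlaps Pcsk2os1 on the opposite strand and had non-whole counts in 3 libraries, so its counts are uncertain. The ratio of Pcsk1 to Pcsk2 in TPM was 0.0933 and 0.0999 in the 0 h libraries, 3.31 and 2.63 after 2 h of KCl and 4.30 and 3.87 after 6 h, so the more abundant convertase transcript differed between silenced and depolarized neurons in every library.

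Pam, which encodes the enzyme that amidates the C terminus of many peptides (chr1:97795114-98095646), was at 61.7 and 58.1 TPM at 0 h, 81.6 and 76.5 TPM at 2 h, and 207 and 204 TPM at 6 h. The groups followed the order of time without overlap, with the larger step after 2 h. Its log2 fold change was 0.68 (SE 0.10, adjusted p = 1.47e-09) at 2 h, 2.04 (SE 0.10, adjusted p = 1.91e-84) at 6 h and 1.36 (SE 0.10, adjusted p = 7.91e-38) from 2 h to 6 h. Pam overlaps B230216N24Rik on the same strand, so its counts carry the same uncertainty as those of Nmb, and they too were whole in every library.

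Cpe, which encodes carboxypeptidase E, was at 975 and 990 TPM at 0 h, 1022 and 1084 TPM at 2 h, and 1082 and 1067 TPM at 6 h, the highest level of the 30 genes. Its log2 fold change was 0.28 (SE 0.09, adjusted p = 0.00867) at 2 h and 0.31 (SE 0.09, adjusted p = 0.00163) at 6 h, and it was not called. Its share of the summed TPM of the 4 enzymes was 89.6% and 89.8% at 0 h, 80.0% and 82.6% at 2 h, and 74.0% in both 6 h libraries, while that sum was 1088 and 1102, 1277 and 1311, and 1462 and 1442 TPM.

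Markers of the cell types that make these peptides were read beside the genes. Of the 22 interneuron markers, 2 were called higher at 2 h (Dlx2 and Dlx5) and 3 at 6 h (Gad1, Gad2 and Dlx6os1) than at 0 h, beside 3.62% and 9.1% of all genes. From 2 h to 6 h, Dlx6os1 was called higher and Dlx2 and Dlx5 were called lower. Their median log2 fold change was 0.33 at 2 h and 0.32 at 6 h, and their summed TPM was 836 to 846 at 0 h, 957 to 978 at 2 h and 1055 to 1110 at 6 h. Gad1, which encodes a GABA-synthesizing enzyme, stood at 1.41 on the log2 scale (SE 0.11, adjusted p = 1.29e-36) at 6 h against 0 h. It made up 34.8% and 33.6% of the summed TPM of the interneuron markers in the 6 h libraries. At an unadjusted p under 0.05, DESeq2 gave 11 of the markers higher and 0 lower at 2 h, and 7 higher and 2 lower at 6 h, each against 0 h.

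The 16 excitatory neuron markers summed to 697 to 712 TPM at 0 h, 764 to 771 at 2 h and 853 to 887 at 6 h. Of these markers, Neurod6 alone was at 264 TPM in both 0 h libraries, 358 and 331 at 2 h, and 377 and 392 at 6 h. The median log2 fold change of the list was 0.14 at 2 h and 0.09 at 6 h, each against 0 h. Of the 16, 1 was called higher at 6 h against 0 h (Fezf2), and Tbr1 and Rorb were among those called higher at 6 h against 2 h. The 18 markers of glial, vascular and other non-neuronal cells summed to 564 to 632, 542 to 566 and 500.3 to 500.5 TPM, with Pecam1 called higher than at 0 h at both times. Their part in the changes of the peptide genes was not tested.

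Genes that act with the 30 were read from lists of related genes. Of 32 receptors for these peptides, 27 were tested at 2 h against 0 h, with 1 called higher and 4 lower, beside 3.62% and 5.94% of all genes. At 6 h against 0 h 28 were tested, with 3 called higher and 5 lower, beside 9.1% and 10.2% of all genes, and at 6 h against 2 h 27 were tested, with 4 called higher and 3 lower, beside 10.1% and 8.02%. The median log2 fold changes of the 26 receptors with a mean count of at least 10 were -0.17, 0.02 and 0.24. Receptors, like all genes tested, were called in both directions. The lower calls at 2 h depended on single libraries: over the 5 lists of related genes described from here on, 6 genes were called lower at 2 h against 0 h, 4 of them receptors, but 2 without the first 0 h library, 1 without the second and 3 without the second 2 h library.

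Sstr2, a somatostatin receptor, had mean normalized counts of 253 at 0 h, 899 at 2 h and 1315 at 6 h, at 1.83 on the log2 scale (SE 0.15, adjusted p = 1.73e-33) at 2 h and 2.38 (SE 0.15, adjusted p = 1.13e-57) at 6 h. Adcyap1r1, the receptor of the PACAP peptide made by Adcyap1, had 9144, 7885 and 3605 normalized counts and a log2 difference of -1.34 (SE 0.11, adjusted p = 2.36e-32) at 6 h against 0 h, opposite in sign to that of its ligand. Ntsr1, a neurotensin receptor, had 1848, 1331 and 229.6 normalized counts and a log2 difference of -3.01 (SE 0.16, adjusted p = 2.81e-73) at 6 h against 0 h.

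Tacr3, the receptor of neurokinin B, had 106, 128 and 577 normalized counts and a log2 difference of 2.45 (SE 0.21, adjusted p = 1.55e-29) at 6 h against 0 h, while its ligand gene Tac2 was not called. For each of these 4 receptors the libraries at 6 h lay apart from those at 0 h.

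Of 32 genes of dense-core granule biogenesis and release, all tested, 1 was called higher and 1 lower at 2 h against 0 h (Syt4 and Rab27a), 2 higher and 2 lower at 6 h against 0 h, and 2 higher and 1 lower at 6 h against 2 h, with medians of 0.14, -0.16 and -0.30. As a share of the list, each of these counts was below the share of all genes called in the same comparison and direction, given above for the receptors. Smaller shifts were common in the list. At an unadjusted p under 0.05, DESeq2 gave 10 of the 32 higher and 4 lower at 2 h against 0 h. It gave 10 higher and 11 lower at 6 h against 0 h, and 7 higher and 17 lower at 6 h against 2 h. Syt4, a synaptotagmin found on dense-core granules, rose by 1.33 on the log2 scale (SE 0.16, adjusted p = 8.03e-16) at 2 h and 1.49 (SE 0.16, adjusted p = 3.79e-20) at 6 h. Ccdc186, a Golgi protein needed for granule cargo sorting, rose by 1.31 (SE 0.20, adjusted p = 1.27e-09) at 6 h, without a difference of that size at 2 h (0.08, SE 0.20). Pick1, a membrane-binding protein of granule formation, fell by 1.26 (SE 0.17, adjusted p = 5.44e-13) on the log2 scale between 2 h and 6 h, and Rab3d, a granule GTPase, by 1.12 (SE 0.14, adjusted p = 4.61e-14) between 0 h and 6 h.

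Of 14 other proprotein processing enzymes, Cpm was called lower at 2 h against 0 h, and Pcsk5, Pcsk7 and Cpm were among those called higher at 6 h against 2 h, with medians of -0.28 and 0.63 over the list. At 6 h against 0 h DESeq2 called 0 of them and edgeR 1, with 5 higher and 3 lower at an unadjusted p under 0.05 in DESeq2. Pcsk5 and Pcsk7, which also encode convertases, had log2 fold changes of 1.39 (SE 0.15, adjusted p = 7.8e-19) and 1.01 (SE 0.14, adjusted p = 2.32e-11) from 2 h to 6 h. At 2 h they were at 284 and 399 normalized counts, against 443 and 505 at 0 h, so they were lowest at the time when Pcsk1 had already risen.

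Of 16 peptidases that degrade neuropeptides, 14 were tested at 6 h against 2 h, where 10.1% of all genes were called higher. Lnpep was the 1 gene called, rising by 1.63 on the log2 scale (SE 0.31, adjusted p = 1.34e-06) in that comparison. Its 2 h libraries were far apart, at 840 and 378 normalized counts, against 995 and 944 at 0 h and 1969 and 1802 at 6 h. Against 0 h, DESeq2 and edgeR called 0 peptidases at either time, and at an unadjusted p under 0.05 DESeq2 gave 4 of them at 2 h and 8 at 6 h in either direction.

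Of 33 other neuropeptide precursors, 22 had a count in any library and 6 were tested. Nppc, which encodes C-type natriuretic peptide, and Adm, which encodes adrenomedullin, were called higher at 6 h against 0 h, with log2 fold changes of 2.65 (SE 0.66, adjusted p = 0.000229) and 2.19 (SE 0.50, adjusted p = 4.8e-05), beside 9.1% of all genes. Nppc was also called higher at 2 h against 0 h (2.02, SE 0.67, adjusted p = 0.0127), and Adm at 6 h against 2 h (1.92, SE 0.50, adjusted p = 0.000422). Both had low levels, at most 3.17 and 4.82 TPM. The summed TPM of these precursors was 33.5 to 46.8 per library, of which Nucb2, which encodes the precursor of nesfatin, made up 65.3% to 79.2%, against 435 to 696 TPM for the 18 precursors above.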

How the data were processed

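RNA-seq of 6 libraries, 3 groups of 2, was analysed. According to the labels and the published methods, the authors selected poly(A) RNA, made stranded paired-end libraries, trimmed the reads, mapped them to mm10 and estimated expression with RSEM 1.3.0 and Bowtie2 2.2.9 (submitters' processing notes). The annotation release and the strand setting are not given in the sources used here. The deposited expected counts are RSEM estimates, not normalized, in which reads shared between genes are divided by maximum likelihood. The deposited TPM values take transcript length into account and have 1 common total in all libraries. Effective lengths, also deposited by the authors, are in bases and move with the mix of transcripts. The FPKM values deposited by the authors were not used.

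Expected counts were rounded and tested in DESeq2 1.42.0 (R 4.3.3), with all 6 libraries and all genes in 1 fit, the group as the only term, median-of-ratios size factors, unshrunken fold changes and Benjamini-Hochberg adjustment. Calls needed an adjusted p no higher than 0.05 and a log2 fold change beyond 1 either way, as in the published methods. Effective lengths were tested with limma 3.58.1 on the log2 scale over genes averaging 100 counts or more, with calls at a log2 ratio of 0.2 or more either way and the same p threshold. Levels were compared between genes in TPM only. Read totals set the precision: counts under about 50 per library gave wide errors, and counts carry no molecular identifiers.

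Symbols were matched for 42462 and GENCODE M21 (GRCm38) positions for 42548 of 43432 genes, and the authors may have used another release. Positions are 1-based. Promoter windows are from RefSeq (GRCm38.p6) and matched by symbol. All members called in any comparison are named with their statistics, the others by level and range. Of each list of related genes, at most 3 called genes per comparison with the largest change and a mean normalized count of at least 100 were described. Adm, Nppc, Nucb2 and other genes named singly fall outside this rule and were chosen after their values were seen. The members, gene lists and tests were chosen with earlier results of these data known. Same-numbered replicates were not treated as pairs. Alternatives were TMM factors, library totals, edgeR 4.0.16, a filter on low counts, a test against a fold change of 2, a replicate block, a GC correction, limma on log2(TPM + 1) with a mean TPM of at least 0.5, and leaving out each library. Bisulfite libraries were not analysed here. Some genes of the lists of related genes are not reported here.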

Additional observations from a re-analysis of the deposited data

How the results depend on the processing

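None of the calls reversed in sign under any alternative: of 418 values under alternatives, taken over the members and comparisons called in the report or under at least 1 alternative, 374 kept their side of the threshold, 38 fell below it and 6 rose past it. Pcsk1, Scg2, Vgf and Adcyap1 were called against 0 h at both times under all 15 alternatives, as were Pnoc, Pam, Crhbp, Tac1, Crh and Cartpt at 6 h. Outside the test against a fold change of 2, which also lost Tac1 at 2 h and Crhbp from 2 h to 6 h, the calls that changed were those of Sst, Grp, Crh at 2 h and from 2 h to 6 h, Crhbp at 2 h, Cartpt from 2 h to 6 h and Cort, which are close to the fold threshold or rest on few counts. The test against a fold change of 2 gave 4 in place of 7 members higher at 2 h and 2 in place of 5 from 2 h to 6 h. Library totals, which move the median of all genes to -0.16 at 2 h and -0.25 at 6 h against 0 h, gave 1 member lower at 6 h against 0 h (Grp) in place of 0. Over all genes they gave 499 higher and 1332 lower at 2 h in place of 609 and 1000, and 1032 higher and 2564 lower at 6 h in place of 1572 and 1761. Leaving out single libraries gave 5 to 7 members higher at 2 h, 10 to 11 at 6 h and 3 to 4 from 2 h to 6 h, and 0 to 1 lower at 6 h in both comparisons.

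Of the related genes, the main counts were 3 higher and 6 lower at 2 h, 7 and 7 at 6 h, and 12 and 4 from 2 h to 6 h. The test against a fold change of 2 gave 1 and 0, 3 and 2, and 1 and 1. Library totals gave 11 lower at 6 h against 0 h. Limma on log2(TPM + 1) gave 3 lower at 2 h and 5 higher from 2 h to 6 h. Leaving out single libraries gave 2 to 3 higher and 1 to 6 lower, 6 to 8 and 5 to 7, and 7 to 12 and 4 to 5. The cause was not tested.

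Deviations of same-numbered replicates correlated at 0.28, -0.00 and 0.15 over 12290 genes in the comparisons of 2 h and 0 h, 6 h and 0 h, and 6 h and 2 h, so the numbers were not read as pairs. With the replicate block 7, 11 and 4 members were higher, with Cort as the call lost.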
